A study of Mus musculus with 12 samples.

Results

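The 10 genes described here carry out and control de novo lipogenesis, the making of fatty acids from carbohydrate in mouse liver. They are Srebf1, Mlxipl, Pklr, Acly, Me1, Acaca, Fasn, Thrsp, Elovl6 and Scd1, chosen by their symbols, with earlier results of these data already known. All 10 were found among the 55401 genes of the deposited table, and all 10 were among the 19014 genes that passed the filter on low counts and were tested. The libraries came from polyA RNA of whole livers in a series on the part of LPCAT3, a phospholipid acyltransferase, in alcoholic liver injury. The labels describe male C57BL/6 mice aged 8 to 10 weeks, which all carried floxed Lpcat3 alleles (LPCAT3flox/flox). FLOX-NC mice (3 libraries) were floxed without cre on control feeding, and LKO-NC mice (2 libraries, replicate 3 not analysed here) carried cre as well (LPCAT3flox/flox-cre) on control feeding. FLOX-ALD mice (3 libraries) and LKO-ALD mice (3 libraries) had the same genotypes in the same order and received the NIAAA diet, an ethanol feeding model. The promoter that drives cre and the exons it removes are stated in none of the sources used here. The labels do not say whether replicates came from separate animals, so every p-value refers to the variation among these libraries only, and that variation may be technical.

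In the fed liver, glucose is broken down to pyruvate and then to citrate, which leaves the mitochondria to provide acetyl-CoA for fatty acid synthesis. A pair of transcription factors switches the pathway on. SREBP1, the product of Srebf1, answers mainly to insulin, and ChREBP, the product of Mlxipl, answers to sugar metabolites. Excess lipogenesis is known as a contributor to fatty liver, including fatty liver after ethanol.

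The libraries held between 39063371 and 73557868 estimated counts. Lpcat3, the targeted gene, was read at 87.1 to 103 CPM (counts relative to library size, with TMM factors, the trimmed mean of M-values) in FLOX-NC, 29.2 to 37.2 across LKO-NC, 30.5 to 43.2 across FLOX-ALD and 9.80 to 15.4 across LKO-ALD, so on either feeding the libraries labelled with cre were the lower ones. FLOX-ALD replicate 1 went against its label of male: it had 772 CPM of Xist against at most 2.95 CPM elsewhere, and a count of 0 over 4 Y-linked genes that summed to 135.1 to 227 CPM in the other libraries. For the comparisons of the 10 genes that use it, selected values and calls are therefore also given without it. Group levels, list medians, profiles over libraries and marker sums are given only with it. Mitochondrially encoded genes took 12.1% to 15.4% of counts in 8 libraries, but 25.3% in the first LKO-NC library and 22.3% and 26.4% in FLOX-ALD replicates 2 and 3. All 8 hepatocyte markers were detected in every group. Of 8 markers of adipocytes, which also make fat, Lep was at a count of 0 in every group but FLOX-ALD. Adipoq was at 0 in both Cre groups. The summed list ranged from 25.1 to 56.1 CPM over all libraries. Within it, Fabp4 and Lipe had the highest mean FPKM (explained below) over all libraries, 16.1 and 4.08. Cfd had 0.804, Cidea 0.14, Retn 0.0235, Plin1 0.0228, Adipoq 0.0205 and Lep 0.00157. In bulk liver, fewer cells of a type and less RNA per cell cannot be told apart.

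Compared per length, as FPKM (counts scaled for gene length and library size, as the authors deposited them), the members spanned a wide range in FLOX-NC. Scd1 stood first at 670 ± 359 FPKM (SD, n = 3), followed by Thrsp at 559.7 ± 260.3, and these neighbours overlapped between libraries. Mlxipl came next at 225 ± 32.5 FPKM and Pklr at 102 ± 32.2, each apart from the gene above it. Elovl6 (48.9 ± 26.3), Me1 (44.2 ± 14.3), Fasn (37.8 ± 23.5), Acly (35.1 ± 14.0) and Srebf1 (21.9 ± 3.48) formed a run in which every neighbour overlapped the next, and Acaca was lowest at 11.4 ± 3.04 FPKM. Scd1, Thrsp and Mlxipl were the 3 most abundant in all 4 groups, in this order. In LKO-ALD, Srebf1 took the last place at 8.08 ± 5.61 FPKM, but its libraries overlapped those of Acaca (8.81 ± 2.40).

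The regulators come first. Mlxipl (ENSMUSG00000005373, chromosome 5, 135089890 to 135138382, + strand, mm10) encodes ChREBP. It was measured at 776, 645 and 893 CPM across FLOX-NC, 466 and 592 across LKO-NC, 349, 482 and 785 across FLOX-ALD, and 283, 292 and 188 across LKO-ALD. The LKO-ALD libraries were the 3 lowest of all 11, while FLOX-ALD replicate 3 reached into the FLOX-NC range. Srebf1 (ENSMUSG00000020538, chromosome 11, 60199089 to 60222581, − strand) encodes SREBP1, which is held in the endoplasmic reticulum until it is cut free. It was measured at 95.3, 77.0 and 78.5 CPM across FLOX-NC, 87.5 and 55.6 across LKO-NC, 29.9, 37.4 and 88.3 across FLOX-ALD, and 22.7, 58.0 and 18.5 across LKO-ALD. Within each ethanol group 1 library was far above the other pair, with a highest-to-lowest ratio of 2.95 across FLOX-ALD and 3.13 across LKO-ALD against 1.24 across FLOX-NC.

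Upstream sequences are shown for these regulators, because each has more than 1 start. They are also shown for Fasn and Thrsp, as an enzyme and a classical carbohydrate-responsive gene of the pathway. A further Srebf1 window, before the start at 60222581, is not printed. RefSeq windows (build GRCm38.p6, the same assembly as mm10) matched 9 of the 10 members by symbol with 14 windows. Each line gives the 250 bases before the start, 5′ to 3′ on the gene's strand, with motif matches in capitals.
Mlxipl, chr5:135089640-135089889, + strand: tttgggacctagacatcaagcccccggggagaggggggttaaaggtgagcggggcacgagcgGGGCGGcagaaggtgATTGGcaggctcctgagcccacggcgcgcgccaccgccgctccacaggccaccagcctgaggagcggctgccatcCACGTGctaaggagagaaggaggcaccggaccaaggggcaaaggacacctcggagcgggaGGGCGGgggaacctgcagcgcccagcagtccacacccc
Mlxipl, chr5:135106641-135106890, + strand: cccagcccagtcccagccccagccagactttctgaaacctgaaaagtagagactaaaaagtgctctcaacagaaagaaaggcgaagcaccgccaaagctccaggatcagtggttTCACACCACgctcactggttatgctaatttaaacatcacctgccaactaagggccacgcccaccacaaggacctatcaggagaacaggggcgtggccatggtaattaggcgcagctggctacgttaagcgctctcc
Srebf1, chr11:60220628-60220877, − strand: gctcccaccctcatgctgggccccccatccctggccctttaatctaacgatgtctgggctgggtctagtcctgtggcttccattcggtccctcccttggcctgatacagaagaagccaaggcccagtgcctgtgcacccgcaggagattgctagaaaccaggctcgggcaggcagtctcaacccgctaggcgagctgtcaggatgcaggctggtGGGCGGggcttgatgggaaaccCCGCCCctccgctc
Srebf1, chr11:60210472-60210721, − strand: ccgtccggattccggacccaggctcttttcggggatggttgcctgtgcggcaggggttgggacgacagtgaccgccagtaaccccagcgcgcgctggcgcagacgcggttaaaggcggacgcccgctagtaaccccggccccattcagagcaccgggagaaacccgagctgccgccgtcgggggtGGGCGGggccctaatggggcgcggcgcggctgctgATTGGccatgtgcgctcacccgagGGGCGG
Fasn, chr11:120824548-120824797, − strand: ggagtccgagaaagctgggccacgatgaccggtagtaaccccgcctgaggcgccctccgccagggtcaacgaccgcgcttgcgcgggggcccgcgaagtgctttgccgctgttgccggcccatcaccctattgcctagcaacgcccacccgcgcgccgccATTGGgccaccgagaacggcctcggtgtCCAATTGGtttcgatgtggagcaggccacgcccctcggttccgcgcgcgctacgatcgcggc
Thrsp, chr7:97417551-97417800, − strand: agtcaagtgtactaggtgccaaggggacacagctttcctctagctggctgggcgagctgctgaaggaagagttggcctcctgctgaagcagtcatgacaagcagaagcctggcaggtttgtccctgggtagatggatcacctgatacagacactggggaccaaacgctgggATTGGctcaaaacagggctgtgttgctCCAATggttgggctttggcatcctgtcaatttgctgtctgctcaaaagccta
The capitals mark the E-box CACGTG, the sterol regulatory element core TCACNCCAC, the Y box CCAAT and the GC box GGGCGG, each searched on both strands, so that ATTGG and CCGCCC are matches on the other strand. The first Mlxipl window holds the only E-box among the members' windows, 98 bases before the start, and the second holds the only sterol element core, 136 bases before the start. Of all 32851 windows of this length, 6.02% held the E-box and 1.05% the sterol element core. The sterol core spelled TCACCCCAC was in none of the members' windows and in 0.496% of all. CCAAT was present in 7 of the 14 members' windows and in 33.8% of all windows, and GGGCGG in 5 of 14 and in 32.7%. Fasn has CCAAT matches 90, 62 and 59 bases before its start, of which the latter pair overlap. Thrsp has them 79 and 52 bases before its RefSeq start at 97417550. The Thrsp transcript with most counts begins at 97417730, inside the printed window, so both matches lie downstream of that first base. The patterns searched for the carbohydrate response element and the LXR element DR4, known by these names, had no match in the members' windows. They were in 0.0274% and 0.0152% of all windows. An element that departs from its pattern by a letter is missed by such a search. The lack of a match therefore does not show that a member, Pklr included, is without the element. A match describes letters in a window and not a site in use.

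The starts of these genes also appear in the deposited transcript counts. The Mlxipl transcript that begins at the upstream start (ENSMUST00000202431, 412 bases long, first base 135089890, 17001 bases upstream of the other start) received 23, 13 and 36 across FLOX-NC, 4 and 21 across LKO-NC, 33, 12 and 30 across FLOX-ALD, and 26, 21 and 17 counts across LKO-ALD. An upstream first exon of this gene is known to give the shorter, carbohydrate-induced ChREBP-beta, but this annotated transcript is not a full coding transcript. The groups overlapped at these low counts. For Srebf1, ENSMUST00000020846 (first base 60220604) received 3090 counts in FLOX-NC replicate 2 and ENSMUST00000134660 (first base 60207188) 244. In FLOX-ALD replicate 2 the former received 8 and the latter 1796. ENSMUST00000134660 begins at neither of the printed Srebf1 starts. ENSMUST00000144942 (first base 60210465), near the second printed start, ranged from 314 counts in FLOX-NC replicate 1 to 0 in LKO-ALD replicate 3. For Acaca, ENSMUST00000020843 had a count of 0 in 4 libraries and 1943 to 6443 in the others. The assignment of reads to these transcripts thus switched between libraries, and members are described below by gene.

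Pklr, Acly and Me1 supply the pathway. Pklr (ENSMUSG00000041237, chromosome 3, 89136142 to 89146784, + strand) encodes liver pyruvate kinase, the last step of glycolysis and a known ChREBP target. It was at 366, 233 and 452 CPM across FLOX-NC, 103 and 176 across LKO-NC, 93.2, 98.9 and 122 across FLOX-ALD, and 100.2, 190.2 and 39.9 across LKO-ALD. All 3 FLOX-NC libraries were above the other 8. Acly (ENSMUSG00000020917, chromosome 11, 100476353 to 100528000, − strand) encodes the enzyme that splits citrate into acetyl-CoA. Its values were 197, 99.8 and 242 CPM across FLOX-NC, 64.4 and 207 across LKO-NC, 49.5, 49.0 and 46.3 across FLOX-ALD, and 61.8, 145 and 36.6 across LKO-ALD. The FLOX-ALD libraries lay within 1.07 times of each other, whereas the Cre groups spread 3.22-fold and 3.97-fold. Me1 (ENSMUSG00000032418, chromosome 9, 86581371 to 86695953, − strand) encodes malic enzyme, a source of the NADPH that synthesis consumes. It was read at 217, 108 and 200.4 CPM across FLOX-NC, 59.7 and 187 across LKO-NC, 48.3, 107 and 60.5 across FLOX-ALD, and 206, 114 and 123 across LKO-ALD, so that FLOX-ALD was below both FLOX-NC and LKO-ALD without overlap.

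Acaca, Fasn and Thrsp belong to the synthesis step. Acaca (ENSMUSG00000020532, chromosome 11, 84129672 to 84401651, + strand) encodes acetyl-CoA carboxylase 1, which makes malonyl-CoA. It stood at 133, 85.1 and 150.4 CPM across FLOX-NC, 60.3 and 67.3 across LKO-NC, 78.6, 98.3 and 79.9 across FLOX-ALD, and 117, 93.8 and 66.5 across LKO-ALD, the narrowest range of the 10 genes (SD of log2 CPM over the 11 libraries 0.425). Fasn (ENSMUSG00000025153, chromosome 11, 120805846 to 120824547, − strand), the fatty acid synthase that builds palmitate, was at 377, 173 and 679.6 CPM across FLOX-NC, 169.8 and 333 across LKO-NC, 196, 145 and 189 across FLOX-ALD, and 109.8, 280.2 and 100.1 across LKO-ALD. FLOX-NC alone spread 3.93-fold for Fasn, and its lowest library lay within the range of both ethanol groups. Thrsp (ENSMUSG00000035686, chromosome 7, 97412938 to 97417730, − strand) encodes Spot 14, a small protein induced by thyroid hormone and carbohydrate that promotes lipogenesis. Its values were 881, 450.2 and 1259.5 CPM across FLOX-NC, 322 and 646 across LKO-NC, 502, 379 and 146 across FLOX-ALD, and 893, 521 and 463 across LKO-ALD, and with all libraries no pair of groups in the comparisons below was free of overlap.

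Elovl6 and Scd1 finish the product. Elovl6 (ENSMUSG00000041220, chromosome 3, 129532355 to 129638495, + strand) encodes the elongase that turns palmitate into stearate. It was measured at 354, 158 and 535 CPM across FLOX-NC, 107 and 164 across LKO-NC, 96.6, 215 and 188 across FLOX-ALD, and 86.1, 128 and 47.7 across LKO-ALD. On either feeding the Cre mean was below the floxed mean, but the ranges overlapped. Scd1 (ENSMUSG00000037071, chromosome 19, 44394455 to 44407879, − strand) encodes the desaturase that makes oleate from stearate. It reached 3387, 2112 and 6211 CPM across FLOX-NC, 3175 and 3681 across LKO-NC, 829, 1477 and 1584 across FLOX-ALD, and 3270.4, 1518 and 3812 across LKO-ALD. The FLOX-ALD libraries were below all libraries of both control-fed groups, while LKO-ALD replicate 2 alone of its group lay in the FLOX-ALD range. Because Scd1 has close paralogs and no source used here gives the counting rules, reads shared between them could be split. Mean FPKM over all libraries was 489.2 for Scd1 and 0.5903, 0.004597 and 0.01728 for Scd2, Scd3 and Scd4.

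**Figure D1:**
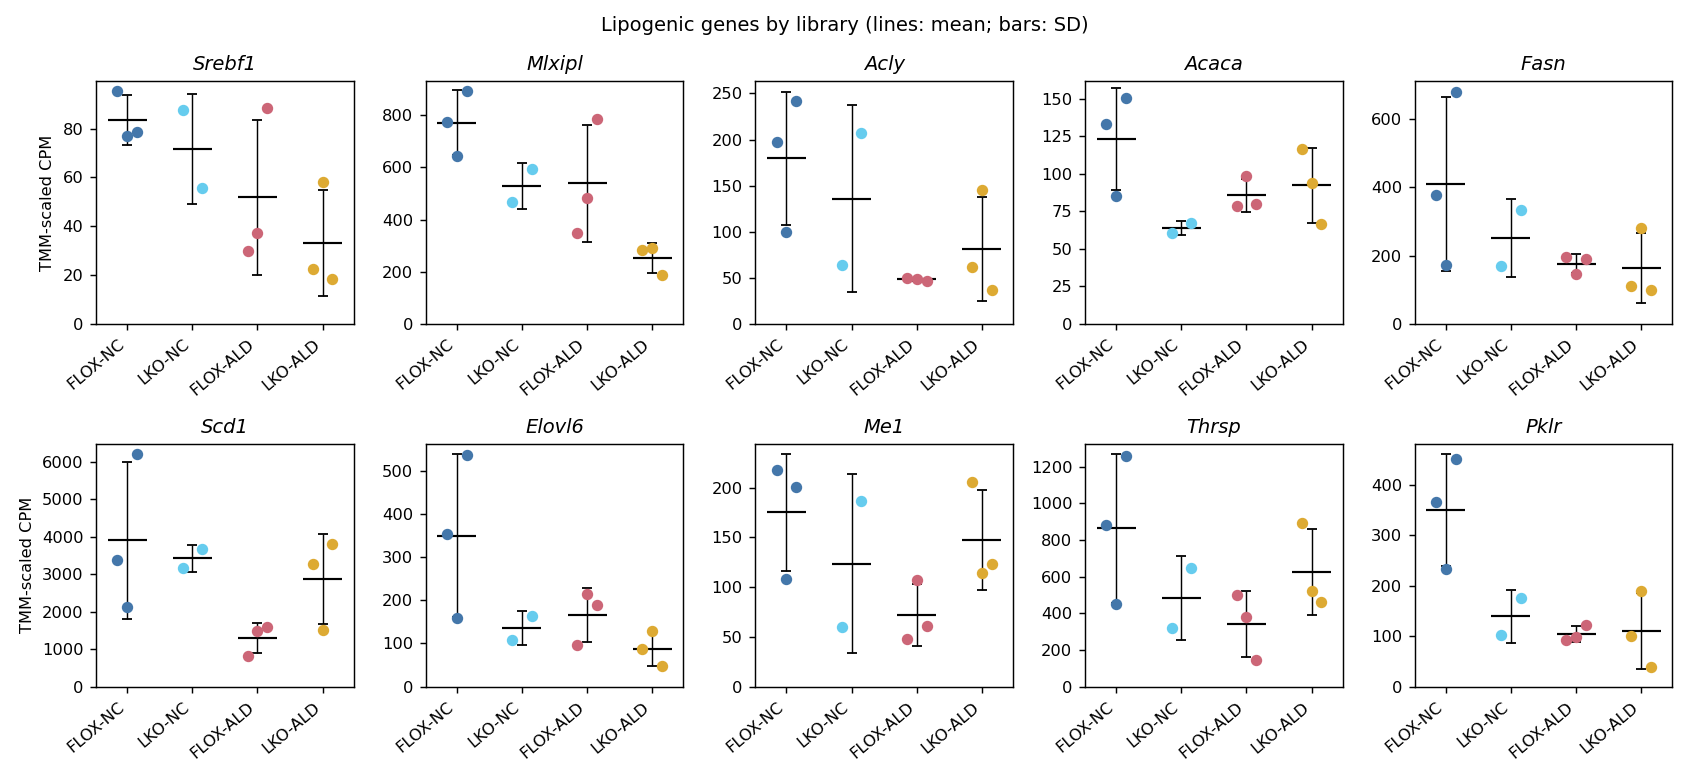
Level of each of the 10 genes by library, as TMM-scaled CPM on a linear axis from 0 (points: libraries; horizontal line: group mean; bars: SD; n = 3, 2, 3 and 3). Scd1, Acly, Me1 and Pklr in FLOX-ALD lie below every FLOX-NC library, and Mlxipl in LKO-ALD lies below every other library.

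The first comparison asks what the ethanol model did in floxed liver (FLOX-ALD minus FLOX-NC). All 10 lipogenic genes had lower means after ethanol, with a median log2 fold change of −1.25 against 0.07 over all genes, of which 44.9% were negative. The change was largest for Acly (−1.90, SE 0.549), Pklr (−1.74, SE 0.467) and Scd1 (−1.59, SE 0.451) and smallest for Mlxipl (−0.52, SE 0.314), Acaca (−0.52, SE 0.258) and Srebf1 (−0.69, SE 0.474). Between them lay Thrsp (−1.33), Me1 (−1.29), Fasn (−1.21) and Elovl6 (−1.07). With edgeR's quasi-likelihood test adjusted over all genes, 0 of the 10 passed, where 0.221% of all genes did. The lowest adjusted p values were 0.168 for Pklr, 0.188 for Scd1 and 0.198 for Acly. At an unadjusted p under 0.05, 7 of 10 were lower (5.92% of all genes), namely all but Srebf1, Mlxipl and Acaca. In 4 genes, Acly, Scd1, Me1 and Pklr, every ethanol library was below every control library, which held for 9.96% of all genes. DESeq2 called 3 of them lower, Acly (adjusted p = 0.00912), Scd1 (0.00923) and Pklr (0.0078), where it called 2.28% of genes lower. Each share given for DESeq2 is of the genes to which it gave an adjusted p (15648 with all libraries here).

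Without FLOX-ALD replicate 1, all 10 differences stayed negative, with a median of −1.18, and 0 were called by edgeR. The Scd1 difference became −1.34 and the Thrsp difference −1.71. Those of the regulators shrank to −0.29 for Mlxipl and −0.42 for Srebf1, more than 1.5 times smaller than with it. DESeq2 then called Acly, Thrsp and Pklr (adjusted p = 0.0369, 0.0337 and 0.0476) and no longer Scd1, with 1.41% of genes called lower. Groups free of overlap then numbered 5 genes, with Thrsp added, against 15.3% of all genes. Without LKO-ALD replicate 3, which enters this comparison only through the shared estimate of spread, edgeR called Pklr lower (adjusted p = 0.0483), where 0.34% of all genes were called lower. Other single libraries moved values by more than 1.5 times as well. Without FLOX-ALD replicate 3 the differences were −1.29 for Srebf1 and −0.87 for Mlxipl, and Srebf1 was then no longer among the 3 smallest. Without FLOX-NC replicate 3 they were −0.64 for Fasn and −0.62 for Elovl6.

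In Cre liver the same feeding comparison (LKO-ALD minus LKO-NC) looked different in its signs. Mlxipl (−1.06, SE 0.345) and Srebf1 (−1.11, SE 0.520) had the largest negative differences, whereas Acaca (0.53), Thrsp (0.37) and Me1 (0.26) were positive. The others were negative but smaller than their floxed counterparts: Acly −0.74, Elovl6 −0.63, Fasn −0.62, Pklr −0.34 and Scd1 −0.26. In all 7 differences were negative, as were 50.1% of all genes, and the median was −0.48 against 0.00 for all genes. This median rested on single libraries, being 0.03 with 5 negative and 5 positive values without LKO-NC replicate 2, −0.71 without LKO-NC replicate 1 and −1.02 without LKO-ALD replicate 2. By edgeR 0 of 10 passed (0.957% of all genes), and the lowest adjusted p was 0.127 for Mlxipl. Only Mlxipl had an unadjusted p under 0.05 (9.49% of all genes were lower at that level) and ethanol libraries all below the control libraries (19.6% of all genes). DESeq2 called Mlxipl lower (adjusted p = 0.0315), where it called 5.07% of genes lower. Several signs here rested on 1 library: Acly was 0.34 and Pklr 0.11 in 1 of the fits without 1 library, and Me1 ranged from −0.34 to 1.31 over these fits. LKO-NC replicate 1, the lower of its pair for 9 of the 10 genes, was also the library with 25.3% mitochondrial counts, and the part of that share in these values was not tested.

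Genotype was compared within each feeding. On control feeding (LKO-NC minus FLOX-NC) all 10 genes had lower means in Cre liver, with a median of −0.62 against 0 over all genes, of which 49.8% were negative. Elovl6 (−1.37, SE 0.544), Pklr (−1.33, SE 0.531) and Acaca (−0.95, SE 0.296) had unadjusted p values under 0.05, a level at which 2.26% of all genes were lower. By edgeR 0 of 10 passed (0.0105% of all genes), the lowest adjusted p being 0.666 for Acaca, and DESeq2 called 0 (0.316% of the 18963 genes with a DESeq2 adjusted p). The Cre libraries were all below the floxed ones for Mlxipl, Acaca and Pklr, against 13.9% of all genes. This median depended on the pair of Cre libraries, since it was −0.40 without LKO-NC replicate 1 and −1.34 without LKO-NC replicate 2. FLOX-NC replicate 3 mattered too, with a median of −0.41 when it was left out. Scd1 (−0.19) and Srebf1 (−0.22) had the smallest differences.

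On ethanol (LKO-ALD minus FLOX-ALD) the 10 genes divided, with 4 negative differences (52.6% of all genes were negative) and 6 positive ones. Mlxipl was lower in Cre liver (−1.08, SE 0.317), as were Elovl6 (−0.93, SE 0.468), Srebf1 (−0.65) and Fasn (−0.11), whereas Scd1 (1.14, SE 0.446), Me1 (1.04, SE 0.447), Thrsp (0.87), Acly (0.75), Acaca (0.11) and Pklr (0.07) were higher. The median was 0.09 against −0.03 for all genes. It was −0.27, with 5 negative values, without LKO-ALD replicate 2, 0.41 without LKO-ALD replicate 3 and 0.03 without FLOX-ALD replicate 1. Among single genes, Srebf1 ranged from −1.33 without LKO-ALD replicate 2 to −0.04 without FLOX-ALD replicate 3, and Acly from 0.03 without LKO-ALD replicate 2 to 1.12 without LKO-ALD replicate 3. Thrsp was 0.49 without FLOX-ALD replicate 3 and 0.52 without LKO-ALD replicate 1, and Elovl6 was −0.61 without LKO-ALD replicate 3. By edgeR 0 of 10 passed, and so did 0 (0%) of all genes, although 1531 genes had an unadjusted p under 0.05 and DESeq2 called 124. Unadjusted p values under 0.05 were found for Mlxipl, which was lower, and for Scd1 and Me1, which were higher, a level reached in either direction by 8.05% of all genes. Mlxipl was lower in every Cre library (6.26% of all genes) and Me1 higher in every Cre library (6.35%). DESeq2 called 0 of the 10 with all libraries (0.654% of 18963 genes). With FLOX-ALD replicate 1 left out, DESeq2 called Mlxipl (−1.33, adjusted p = 0.00294), where it called 1.04% of genes lower, while edgeR did not (−1.31, adjusted p = 0.218). Mlxipl and Elovl6 then lay lower without overlap (12.9% of all genes), and Me1 and Thrsp higher (12.8%).

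**Figure D2:**
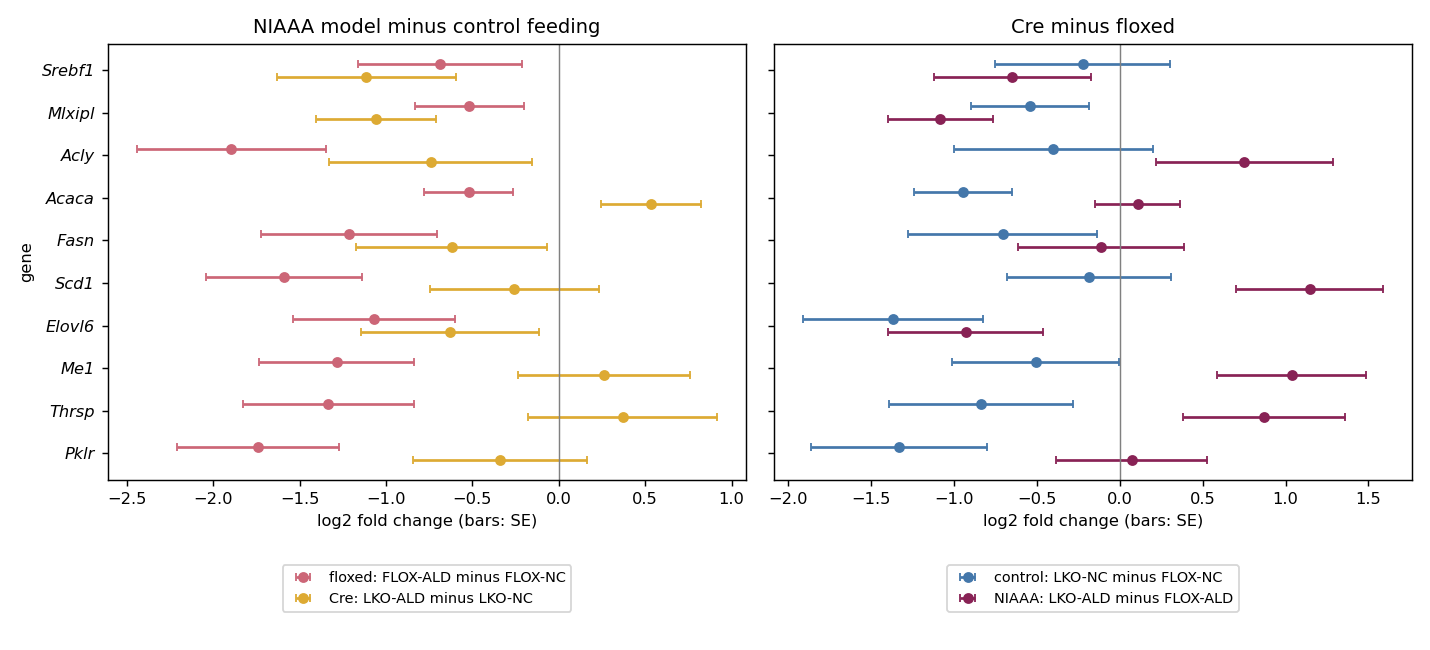
Log2 fold change with its SE for each of the 10 genes from edgeR, for ethanol minus control feeding in floxed and in Cre mice (left) and for Cre minus floxed mice on control and on ethanol feeding (right). All 10 values are negative in floxed mice after ethanol and in Cre mice on control feeding, while the other comparisons hold both signs. Each group enters 1 comparison of either panel, so the panels are not independent.

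Whether the feeding difference itself differed between genotypes is the interaction, tested as its own contrast. It was positive for 8 of 10 genes (47.3% of all genes) and negative for Mlxipl (−0.54) and Srebf1 (−0.42), with a median of 1.10 against −0.05 over all genes. The largest values were those of Thrsp (1.70, SE 0.741), Me1 (1.54, SE 0.674), Pklr (1.40, SE 0.692), Scd1 (1.33, SE 0.670), Acly (1.15, SE 0.806) and Acaca (1.06, SE 0.390). By edgeR 0 of 10 passed (0.00526% of all genes), with the lowest adjusted p at 0.498 for Acaca. Thrsp, Me1 and Acaca had unadjusted p values under 0.05, higher (4.21% of all genes). Without FLOX-NC replicate 3, LKO-NC replicate 1 or LKO-ALD replicate 1, 0 of the 10 reached that level. The median was 0.61 without LKO-ALD replicate 2, 0.74 without LKO-NC replicate 1 and 1.05 without FLOX-ALD replicate 1. The sign of these 3 genes held in every fit without 1 library, with ranges of 1.28 to 2.27 for Thrsp, 0.94 to 2.59 for Me1 and 0.85 to 1.28 for Acaca. Without FLOX-ALD replicate 1 the values of Thrsp and Me1 were 2.08 and 1.33. DESeq2 called 0 of the 10 (0.406% of 18963 genes). The feeding comparisons in the 2 genotypes were thus not shown to differ for any of these genes at this number of libraries.

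Averaged over both genotypes, ethanol feeding was associated with lower values of 9 genes, where 47.3% of all genes were negative, and Acaca stood at 0.005 (SE 0.193). The differences were −1.32 for Acly (SE 0.398, edgeR adjusted p = 0.0822), −1.04 for Pklr (SE 0.340, adjusted p = 0.0969) and −0.79 for Mlxipl (SE 0.234, adjusted p = 0.071). Scd1 (−0.92), Fasn (−0.92), Srebf1 (−0.90) and Elovl6 (−0.85) followed, and Me1 (−0.51) and Thrsp (−0.48) were the smallest after Acaca. The median was −0.88 against 0.04 for all genes. By edgeR 0 of 10 passed, where 4.61% of all genes did, and 7 had an unadjusted p under 0.05, lower (10.3% of all genes). DESeq2 called 4 lower, Acly (adjusted p = 0.00678), Mlxipl (0.00994), Pklr (0.0207) and Scd1 (0.0279), where it called 7.15% of 15648 genes lower. With FLOX-ALD replicate 1 left out, DESeq2 called Acly, Mlxipl and Pklr (6.34% of genes lower), and the median by edgeR was −0.74. EdgeR called Srebf1, Acly and Pklr without LKO-ALD replicate 2 lower (adjusted p = 0.0302, 0.0213 and 0.0256), a fit in which 3.06% of all genes were called lower. It called Srebf1 and Mlxipl lower without FLOX-ALD replicate 3 (adjusted p = 0.0403 and 0.0191), where 3.3% of all genes were. Averaged over both feedings, the genotype differences were −1.15 for Elovl6 (SE 0.358) and −0.81 for Mlxipl (SE 0.239), the 2 genes with an unadjusted p under 0.05, lower (2.33% of all genes). Negative values numbered 6 of 10 (52.2% of all genes). By edgeR 0 of 10 passed (0.0158% of all genes), and DESeq2 called 0 (0.445% of 15281 genes). With FLOX-ALD replicate 1 left out, DESeq2 called this pair lower (adjusted p = 0.0195 and 0.00363), where it called 0.482% of genes lower.

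The libraries of a group differed from each other in the members as a block. Each gene's log2 CPM was centred on its mean over the 11 libraries, and the median over the 10 genes was taken per library. It was 0.86, −0.02 and 1.32 across FLOX-NC, −0.47 and 0.33 across LKO-NC, −0.65, −0.45 and −0.21 across FLOX-ALD, and −0.52, 0.04 and −1.18 across LKO-ALD. FLOX-NC replicate 2 was the lowest of its group for all 10 genes, and FLOX-NC replicate 3 the highest of all libraries for 8. LKO-ALD replicate 3 was the lowest of all libraries for 6 genes, yet it was the highest of its group for Scd1. The SD of this median between libraries of a group was 0.546 on the log2 scale, so the spread within groups was of the size of several of the differences above. In LKO-ALD, replicate 2 was highest for Srebf1, Mlxipl, Acly, Fasn, Elovl6 and Pklr but lowest for Scd1 and Me1, and replicate 1 was highest for Acaca, Me1 and Thrsp. Fasn (root mean square difference from the median profile 0.292) and Pklr (0.360) followed the shared profile most closely, and Scd1 (0.784), Thrsp (0.727) and Me1 (0.679) least. Genes in the same libraries share depth and RNA, so these are descriptions.

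**Figure D3:**
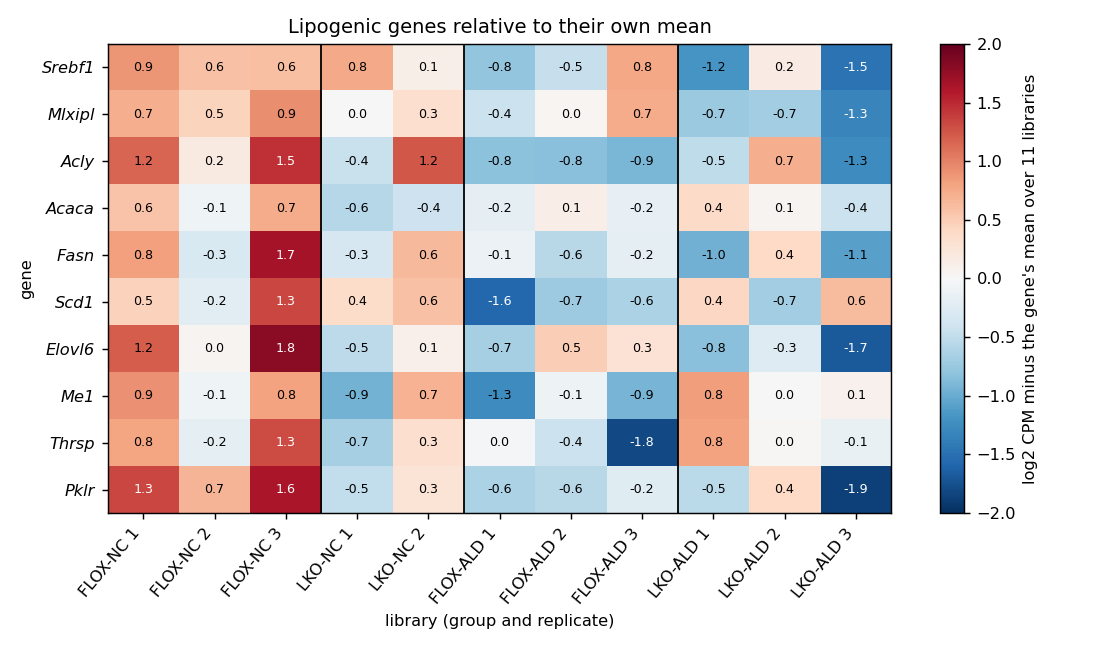
Log2 CPM of the 10 genes in each of the 11 libraries minus the gene's own mean over all libraries (red: above, blue: below; vertical lines separate the groups). FLOX-NC replicates 1 and 3 are above the mean for all 10 genes, and LKO-ALD replicate 3 is below it for 8.

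By a fixed measure, the 6 other genes whose profiles lay closest to the median profile of the 10 were sought among 7970 genes whose mean log2 CPM was 3 or more. They were Abhd14b (root mean square difference 0.282), Arhgap29 (0.301), Aacs (0.304), Uox (0.318), Gls2 (0.331) and Aadac (0.339), over 11 libraries, where a flat profile gave 0.683. Aacs encodes acetoacetyl-CoA synthetase, which returns ketone bodies to lipid synthesis, Uox urate oxidase and Gls2 the liver glutaminase. They were chosen for a profile that was already lower after ethanol, so their feeding differences averaged over genotypes are given without a test: −0.75 for Abhd14b, −0.74 for Arhgap29, −0.62 for Aacs, −0.81 for Uox, −0.96 for Gls2 and −0.74 for Aadac. Aacs was at 58.0, 40.1 and 82.8 CPM across FLOX-NC and 22.7 and 27.4 CPM across LKO-NC.

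Neighbouring steps of the pathway were read from 9 lists with 130 entries. In desaturation and elongation, 12 of 14 genes were tested, and averaged over genotypes 2 fell with ethanol and 0 rose, with a list median of −0.72 against 0.04 for all genes. In this comparison edgeR called 4.61% of all genes, and 2.41% of all genes were called lower. The counts of each list here stand against those shares. The genes of this list that fell were Fads2, the desaturase of polyunsaturated fatty acids (−1.23, SE 0.322, edgeR adjusted p = 0.0493), and Elovl2, an elongase of the same series (−1.22, SE 0.309, adjusted p = 0.0451). In CPM, Fads2 averaged 746 ± 159 across FLOX-NC, 980.2 ± 159.8 across LKO-NC, 344 ± 208 across FLOX-ALD and 386 ± 171 across LKO-ALD (SD, n = 3, 2, 3 and 3). Both calls were marginal: that of Fads2 held only without FLOX-ALD replicate 1 or LKO-ALD replicate 2, and that of Elovl2 only without these or FLOX-ALD replicate 2, while each of the remaining libraries ended it when left out (adjusted p up to 0.126). In glycerolipid assembly 2 of 17 fell and 0 rose (list median −0.31). Lpin2, a phosphatidate phosphatase that makes diacylglycerol, fell by 1.59 on the log2 scale (SE 0.285, adjusted p = 0.0133) and was called in all 11 fits without 1 library. Gpam, the mitochondrial acyltransferase that starts triglyceride synthesis, fell by 1.24 (SE 0.271, adjusted p = 0.0268). Gpam no longer passed when FLOX-NC replicate 1 or 3 or LKO-NC replicate 1 or 2 was left out (adjusted p = 0.0598, 0.0672, 0.0542 and 0.0944). Among 15 ChREBP partners and targets, 1 fell and 0 rose (list median 0.21). It was Txnip, a glucose-induced brake on glucose uptake (−1.23, SE 0.264, adjusted p = 0.0256), at 115 ± 19.9 CPM across FLOX-NC, 74.3 ± 3.27 across LKO-NC, 31.5 ± 20.7 across FLOX-ALD and 49.7 ± 9.11 across LKO-ALD. Its call was lost without any of the 5 control-fed libraries or LKO-ALD replicate 1 (adjusted p 0.0517 to 0.0878).

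In that comparison no gene of the following lists passed edgeR's test. The acetyl-CoA and NADPH supply genes had a median of −0.17 (0 of 14 called). The fatty acid synthesis partners had −0.20 (0 of 5 tested of 6 listed), and the SREBP1 processing and control genes −0.04 (0 of 18). At an unadjusted p under 0.05 were 4, 2 and 5 of them in this order, as were 22.7% of all genes. Their most abundant genes per length were the following. Mpc1, a subunit of the mitochondrial pyruvate carrier, had a difference of 0.49 and Idh1, cytosolic isocitrate dehydrogenase, of −0.24. Acacb, the mitochondrial acetyl-CoA carboxylase that restrains fatty acid oxidation, had −0.44 and Aacs −0.62. Insig1 and Insig2, proteins that retain SREBP precursors in the endoplasmic reticulum, had −1.38 (adjusted p = 0.0541) and 0.47. By genotype, averaged over feedings, 0 genes of these 9 lists passed.

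Fasting-induced genes of the liver were listed because they run opposite to lipogenesis in the fed and fasted cycle. Averaged over genotypes, 3 of 14 fell with ethanol and 0 rose (list median −0.42), where 2.41% of all genes fell. Pck1, the first committed enzyme of gluconeogenesis, fell by 1.62 (SE 0.221, edgeR adjusted p = 0.00441) and Ppargc1a, a coactivator of the fasting response, by 1.48 (SE 0.194, adjusted p = 0.0035). Both were called in all 11 fits without 1 library. Pdk4, which blocks pyruvate entry into the citrate cycle, fell by 1.22 (SE 0.318, adjusted p = 0.0493), and this call held only without FLOX-ALD replicate 2 or 3 (adjusted p up to 0.209 without another library). Pck1 was at 3415 ± 537 CPM across FLOX-NC, 4008 ± 783 across LKO-NC, 1008 ± 199 across FLOX-ALD and 1440.0 ± 388.9 across LKO-ALD. Every ethanol library was below every control library of its genotype for Pck1, which held for 9.96% of all genes in floxed liver and 19.6% in Cre liver. In floxed liver alone it was called as well (−1.76, adjusted p = 0.0428), but not without FLOX-NC replicate 1, 2 or 3, FLOX-ALD replicate 1 or 3 or LKO-ALD replicate 1 (adjusted p 0.0515 to 0.18). In Cre liver alone Ppargc1a was called (−1.67, adjusted p = 0.0303), but not without FLOX-NC replicate 1 or 2, LKO-NC replicate 1 or 2 or LKO-ALD replicate 1 or 3 (adjusted p 0.0634 to 0.0996). EdgeR called 0.221% of all genes in floxed liver alone and 0.957% in Cre liver alone. Lipogenic and fasting-induced genes thus both included members with lower levels after ethanol.

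**Figure D4:**
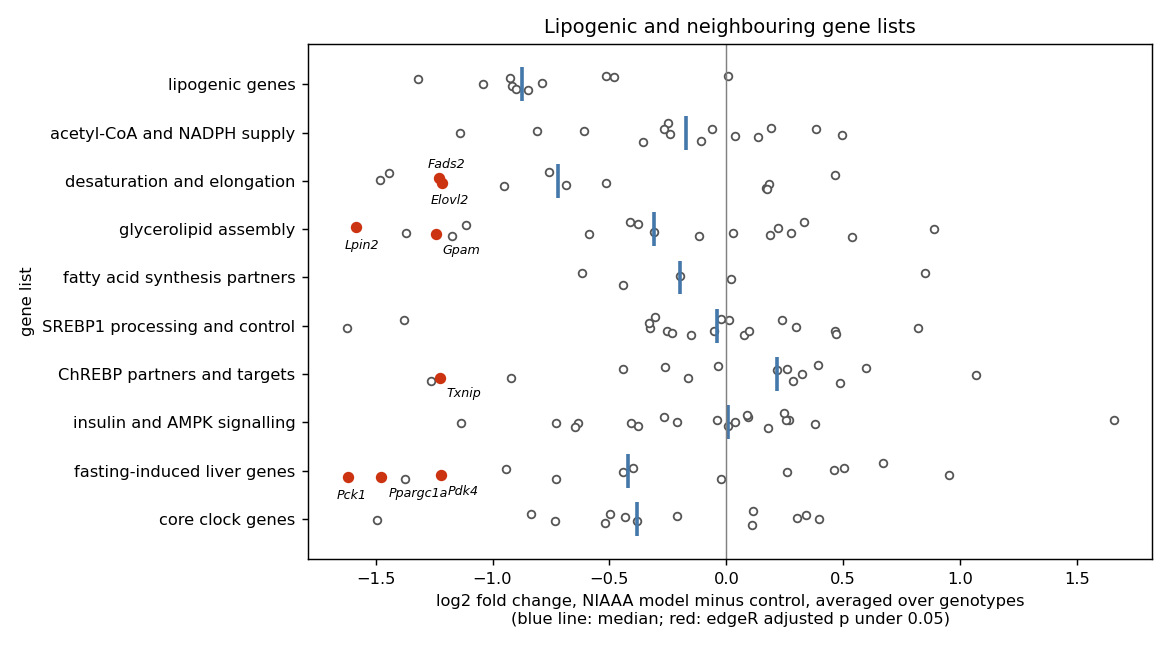
Log2 fold change of ethanol minus control feeding averaged over genotypes for the 10 lipogenic genes and the tested genes of 9 neighbouring lists (circles: genes; blue line: list median; red: edgeR adjusted p under 0.05, with symbols). The lipogenic genes have the lowest list median at −0.88 with no called gene, and the called genes of the other lists all lie below −1.2.

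Markers of other cells moved with feeding as well. Averaged over genotypes, 3 of 7 B and plasma cell markers, 2 of 6 Kupffer cell markers and 1 of 6 T and NK cell markers fell by edgeR's test, where 4.61% of all genes passed. Among them Ighm and Cd22 passed in all 11 fits without 1 library, Cd4 in 9, Clec4f in 3 (adjusted p up to 0.174) and Adgre1 in 1 (up to 0.212). The summed B and plasma cell markers were at 10.8 to 18.7 CPM across FLOX-NC, 16.7 to 17.7 across LKO-NC, 4.36 to 5.72 across FLOX-ALD and 3.07 to 3.97 across LKO-ALD, and the summed Kupffer cell markers at 92.0 to 152, 141 to 286, 82.5 to 218 and 37.0 to 90.2 CPM in the same order. Of 5 tested adipocyte markers, Fabp4 rose and Cfd and Lipe fell, and of 6 sinusoidal endothelial markers Lyve1 rose. Of these 4 calls, those of Fabp4 and Lyve1 held in 6 of the 11 fits, that of Cfd in 7 and that of Lipe in 1 (adjusted p up to 0.22). Summed hepatocyte markers were at 116200 to 121300 CPM across FLOX-NC, 81940 to 127900 across LKO-NC, 65900 to 136200 across FLOX-ALD and 73920 to 98720 across LKO-ALD. The hepatocyte list had a median feeding difference of −0.09 with 0 of 8 called. Summed neutrophil markers were at 3.85 to 6.42 CPM across FLOX-NC, 5.57 to 56.2 across LKO-NC, 6.69 to 22.3 across FLOX-ALD and 17.9 to 28.5 across LKO-ALD, and 0 of 6 tested were called. The part of these shifts in the values of the lipogenic genes was not tested.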

How the data were processed

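Liver polyA RNA was sequenced. A KAPA stranded mRNA kit and a SMARTER library kit were used, per the labels' protocols. Per the submitters' processing notes, cutadapt, FastQC, HISAT2, StringTie and edgeR were used (no versions) with build mm10. No source used here gives the counting rules or the strand setting. The authors deposited estimated counts, already whole numbers, and FPKM per gene and transcript. Samples were grouped by the labels' treatment group. The design had assumed read counts of 12 libraries. The deposited values were estimated counts of 11, tested in the same way. Replicates of a group differed beyond sampling noise, so none was merged.

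Genes with enough counts (filterByExpr, minimum count 10, minimum total 15) were scaled by TMM and fitted with robust edgeR 4.0.16 quasi-likelihood models in R 4.3.3, with 1 mean per group, 7 residual and 5.51 prior degrees of freedom and a common biological coefficient of variation of 42.2%. The 7 contrasts were adjusted by Benjamini-Hochberg over all 19014 genes, threshold 0.05. Fold changes are log2 and each SE was taken as the absolute log2 fold change over the root of the F statistic. Levels are TMM-scaled CPM, as mean ± SD. DESeq2 1.42.0, limma 3.58.1 (voom, and log2 of FPKM plus 1 or plus 0.1), other scalings and filters, fits leaving out each library in turn and a block fit were alternatives. DESeq2's shares are of the genes with a DESeq2 adjusted p. The fit was run on simulated data with less variation between libraries than here, so that run does not measure its power on these data. The members and lists were chosen with earlier results of these data known. Named genes were the members, Lpcat3, the 6 genes of most similar profile, and per list up to 3 higher and 3 lower called genes. Lists without called genes gave the 2 of highest mean FPKM, except that the clock list gave 1 gene and the insulin list no gene. Figures were drawn with matplotlib 3.10.9.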

Additional observations from a re-analysis of the deposited data

How the results depend on the processing

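For 70 values (10 genes in 7 comparisons) 1620 alternative values were computed. Of these, 1547 kept their direction and side of the threshold, 26 passed it where the value by edgeR on all libraries had not, and 47, from 20 of the 70, changed sign. None of the 70 passed by edgeR on all libraries, so no call could be lost. Sample titles share 5 numbers between the feedings of a genotype. Same-numbered libraries did not deviate together: correlations of their deviations from the group means over the tested genes ran from −0.05 to 0.078, and 2 of 10 libraries correlated best with their own number. A fit with these numbers as a replicate block, chosen after seeing the data, drops LKO-ALD replicate 2, whose number has no partner, has 3 residual degrees of freedom and cannot give genotype differences. It called 0 genes for ethanol in either genotype or the interaction and 1 averaged over genotypes (Srebf1, −1.31, edgeR adjusted p = 0.0447, with 1.46% of all genes called lower). The block moved the median for ethanol in Cre mice to −1.07, Scd1 there to 0.0466, Fasn and Elovl6 in the interaction to −0.17 and −0.0373, and Acaca averaged over genotypes to −0.0126. DESeq2 called 3 genes for ethanol in floxed mice, 1 in Cre mice and 4 averaged over genotypes, against 0 by edgeR. The fit without a filter called 1 averaged over genotypes. DESeq2 with FLOX-ALD replicate 1 left out, chosen after seeing the data, called 3, 1 and 3 in these comparisons, 1 for genotype on ethanol and 2 for genotype averaged over feedings. Leaving out 1 library gave 0 to 1 called genes for ethanol in floxed mice, 0 to 3 averaged over genotypes, and a median for genotype on control feeding from −1.34 to −0.40.

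Under other settings that kept every library, or DESeq2 without FLOX-ALD replicate 1, signs changed for 3 values. Pklr for genotype on ethanol was −0.18 with voom, −0.10 and −0.12 with FPKM plus 1 and plus 0.1, and −0.0147 with DESeq2 without FLOX-ALD replicate 1. Acaca averaged over genotypes was −0.0074 with DESeq2 and with its size factors in edgeR, −0.0055 without mitochondrial genes, −0.0119 and −0.0077 with FPKM plus 1 and plus 0.1, −0.043 with upper-quartile factors and −0.0023 with a CPM of 1 in 3 libraries. Acly for genotype averaged over feedings was −0.0094 with voom. Leaving out 1 library changed signs over these ranges: for ethanol in Cre mice Acly −1.48 to 0.34, Me1 −0.34 to 1.31, Pklr −1.01 to 0.11, Scd1 −0.52 to 0.0259 and Thrsp −0.0479 to 0.96; for genotype on control feeding Acly −1.47 to 0.20, Me1 −1.55 to 0.0899, Scd1 −0.48 to 0.32 and Srebf1 −0.59 to 0.0706; for genotype on ethanol Acaca −0.0946 to 0.32, Fasn −0.75 to 0.17 and Pklr −0.58 to 0.49. For the interaction they were Elovl6 −0.0076 to 0.79, Fasn −0.0318 to 1.14 and Srebf1 −1.08 to 0.18; for ethanol averaged over genotypes Acaca −0.0986 to 0.0902 and Me1 −0.81 to 0.0192; for genotype averaged over feedings Acly −0.36 to 0.48, Me1 −0.26 to 0.56 and Thrsp −0.28 to 0.22. The cause was not tested. The libraries held 39063371 to 73557868 counts in groups of 2 or 3, and the part of depth and of the number of libraries in these results was not tested.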

Other observations

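Insulin and AMPK signalling genes, which govern SREBP1 and acetyl-CoA carboxylase, had a median of 0.01 in the feeding difference averaged over genotypes. Of 19, 0 passed edgeR's test, which 4.61% of all genes passed. An unadjusted p under 0.05 was found for 4 of them and for 22.7% of all genes. Core clock genes had a median of −0.38, and 0 of 13 passed, with 5 at an unadjusted p under 0.05, against the same 22.7% of all genes. Dbp, a clock output gene, was at 105.5 ± 17.8 CPM across FLOX-NC, 43.9 ± 49.4 across LKO-NC, 23.2 ± 14.0 across FLOX-ALD and 25.2 ± 25.7 across LKO-ALD. In LKO-NC and LKO-ALD the SD of Dbp was above its mean. Dbp was the only clock gene with values given here, so its levels do not stand for the list.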
